A study of Mus musculus with 8 samples.

Results

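Heat shock proteins and chaperonins were compared between kidneys of mice given an inhibitor of miR-214, an antisense oligonucleotide that blocks this microRNA, and kidneys of mice given a control oligonucleotide. The members were all genes whose array symbol begins with Hspa, Hspb, Hspd, Hspe, Hsph, Hsp90a, Hsf, Bag or Dnaj, or is Cct followed by a number, leaving out Hspbap1 and the genes of the endoplasmic reticulum Hspa5, Dnajb9, Dnajb11, Dnajc3 and Dnajc10. On the array 83 such genes had 151 probes, of 45281 probes in all. Of these, 81 probes for 58 genes were detected on at least 4 of 8 arrays and were tested, beside 18601 tested probes for 10734 named genes on the whole array. Of the 81, 72 were detected on all 8 arrays, and 2 (Dnajb4 and probe 2 of Dnajc28) were detected on at most 1 array of 1 group and so were tested only through the other group. The remaining 70 member probes were not tested, and 25 genes had no tested probe, among them Dnaja1, Cct2 and Cct7. The set is not purely cytosolic, since the symbols also take in chaperones of the mitochondrion, such as Hspa9, Hspd1, Hspe1, Dnaja3 and Dnajc19. Apart from the genes left out by name, members were not sorted by compartment, so others of the endoplasmic reticulum may remain.

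All 8 animals were adult male C57/bk mice whose kidney was sampled 7 days after unilateral ureteral obstruction (UUO), an operation that blocks the outflow of urine from 1 kidney and leads to tubule injury, inflammation and scarring. The controls received control antimiR (4 animals) and the others anti-miR-214 (4 animals), with 1 Illumina bead array per animal. The sources used here give neither dose nor chemistry of the oligonucleotides, and kidneys without obstruction were not analysed here. Samples are named by group and replicate, and probes of 1 gene are numbered from the brightest down by their mean over all 8 arrays.

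Molecular chaperones bind unfolded or unfinished proteins and let them fold without clumping. Hsp70 proteins do this in cycles driven by ATP, with J-domain proteins (Dnaj) delivering clients and BAG-domain and Hsp110 proteins releasing the spent nucleotide, while Hsp90 finishes kinases and hormone receptors, small heat shock proteins hold unfolded clients and the ring-shaped chaperonin CCT/TRiC folds actin and tubulin inside its chamber. Under protein stress, heat shock factors bind repeats of the letters GAA and its reverse TTC in the promoters of these genes, and in the kidney the stress-inducible forms are known as markers of tubule injury.

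The sequences below show the target of the treatment and the 3-unit repeats of GAA and TTC that a search found in promoters of member genes. The first line is the mature miR-214-3p, with its seed (bases 2 to 8) in capitals. The other lines are 30 bases around each site, with the repeat in capitals. In the Hspd1 and Hspe1 lines 2 matches overlap, and the capitals span 18 bases in place of 13.
mmu-miR-214-3p: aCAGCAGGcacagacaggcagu
Hsph1: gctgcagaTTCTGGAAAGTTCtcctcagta
Hspd1: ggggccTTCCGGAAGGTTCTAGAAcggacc
Hspe1: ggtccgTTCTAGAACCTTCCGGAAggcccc
Dnajb6: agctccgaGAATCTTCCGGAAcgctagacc
All come from RefSeq tables of build GRCm38.p6. The microRNA lies at chr1:162223438-162223459 on the plus strand. The Hsph1 bases lie at chr5:149636279-149636308 on the minus strand, where the repeat starts 16 bases after the gene start. The Dnajb6 bases lie at chr5:29735844-29735873 on the plus strand, 46 bases before the gene start. The Hspd1 and Hspe1 lines are the same place, chr1:55088053-55088082, read on the minus strand for Hspd1 and on the plus strand for Hspe1, since these neighbours share a promoter and are read in opposite directions. The search took 3 units in turn (GAA, any 2 bases, TTC, any 2 bases, GAA, or the same with TTC and GAA exchanged) on both strands from 250 bases before to 50 bases after the gene start. It matched 4 of the 68 member genes that had a window (5.88%), against 179 of 27025 genes in all (0.662%). The shorter repeat GAANNTTC or TTCNNGAA, which also lies inside the longer one, matched 20 of 68 member genes (29.4%) and 4587 of 27025 genes in all. A match is a description of these letters and not a measured binding site.

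As a check of the labelled tissue, Umod, a product of the thick ascending limb, had a log2 intensity of 13.97 ± 0.11 in control kidneys (SD, n = 4), and Slc34a1, the phosphate carrier of the proximal tubule, one of 13.68 ± 0.37. Fewer probes were detected on the anti-miR-214 arrays (16852 to 17745) than on the control arrays (18913 to 19513), and the median raw intensity was 146 to 172 on control and 153 to 173 on anti-miR-214 arrays. The upper quartile of raw intensity was 276 to 320 on control and 255 to 300 on anti-miR-214 arrays. Some markers of other cell types moved between the groups. Measured as the summed normalised intensity of the brightest probes, macrophage genes had 9590 to 11000 in control and 3180 to 6590 in anti-miR-214 kidneys (2 of 5 lower, none higher), fibroblast and myofibroblast genes 14300 to 21400 and 8610 to 13700 (5 of 6 lower), endothelial genes 3660 to 5290 and 1150 to 3270 (3 of 3 lower) and erythroid genes 15500 to 19300 and 3330 to 17300 (2 of 3 lower). T and NK cell genes had 1940 to 2410 in control and 3210 to 4590 in anti-miR-214 kidneys (1 of 4 higher, Prf1). Such sums weigh bright probes most. On the brightest probes Lyz2 (-2.32) and Mrc1 (-1.18) were lower, while Adgre1 (-0.46), Csf1r (-0.47) and C1qa (-0.10) did not pass. Lyz2 probe 2 was at -0.57 and did not pass, and 6 of 10 macrophage probes were lower. Prf1 rose by 0.91, while Nkg7 (0.57), Cd3g (0.13) and Cd3e did not pass. Proximal tubule genes had 15300 to 26700 and 15700 to 34300 (1 of 6 higher), collecting duct genes 1490 to 2360 and 1820 to 3460 (1 of 4 higher), podocyte genes 3560 to 4920 and 4560 to 4820 (1 of 3 higher), and thick limb genes 16800 to 22300 and 13700 to 21500, with neither gene passing. The endothelial marker Kdr was on the array but below the detection filter. The part of these cell types in the chaperone results was not tested, and in whole tissue fewer cells of a type and less RNA per cell cannot be told apart.

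Anti-miR-214 and control antimiR were compared to ask how obstructed kidneys differ when miR-214 is blocked. Most chaperone probes did not pass the test: of 81, 6 were higher after anti-miR-214, 11 were lower and 64 did not pass (limma, adjusted p threshold 0.05 over all tested probes). That is 21.0% of member probes, against 25.6% of all tested probes (11.8% higher and 13.8% lower), so the chaperones were called no more often than the array at large. The median log2 change was 0.04 for member probes and 0.05 for all tested probes. The groups did not overlap in 7 member probes on the higher side and 13 on the lower side (24.7%), against 28.9% of all tested probes.

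Small changes depended on how the arrays were scaled. With quantile normalization, used throughout, 46.1% of all calls on the array were higher. With arrays scaled to a common median of the tested probes, 60.1% were higher and the members had 10 higher and 11 lower probes. With a common median of all probes 10.9% were higher, and the members had 1 higher and 20 lower. The median of all tested probes moved from 0.05 to 0.13 and -0.15 under these scalings, and the member median stayed at 0.01 below it in both. The 17 probes described below kept their sign under both scalings.

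By gene, taking the probe of highest mean over all 8 arrays for each of the 58 genes, 5 were higher (Hsph1, Hsf2, Dnajb2, Dnajc4 and Dnajc17) and 1 was lower (Cct6a), which is 10.3% of members against 22.3% of all named genes (12.3% higher and 9.93% lower). The 23 dimmer probes of the 18 genes with several tested probes had 1 higher and 10 lower, where dimmer probes of all named genes were lower in 21.1% and higher in 10.4%. Of the 11 lower calls, 9 were dimmer probes of genes whose brightest probe did not pass, and the others were both probes of Cct6a. This order is not independent of the change, since a fall lowers a probe's own mean. Ranked on the control arrays alone, a choice made after seeing the data, the same 5 genes were higher and 3 were lower (Cct6a, Dnajb6 on probe 3 and Dnajc16 on probe 2), against 11.9% and 10.5% of all named genes. The lower calls on dimmer probes of genes whose brightest probe did not pass were then 6 (Hspa8, Hspa9, Hspd1, Cct3, Dnajc2 and Dnajc12).

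**Figure D1:**
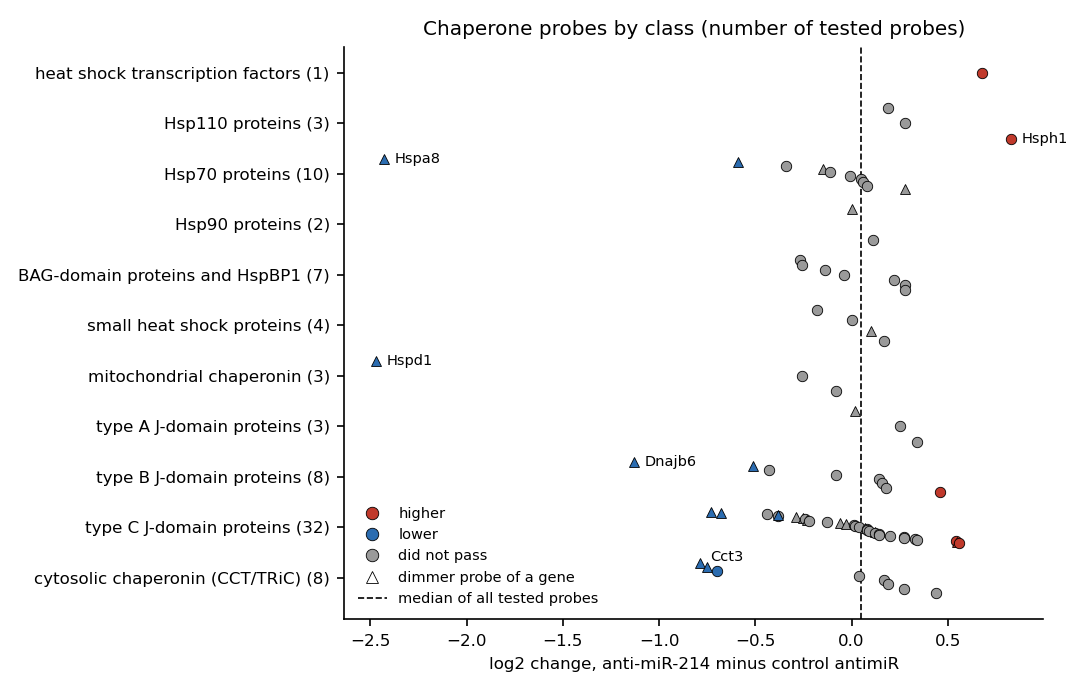
Log2 change (anti-miR-214 minus control antimiR, horizontal axis) of each of the 81 tested chaperone probes, by class, with the number of probes in brackets. Circles are the brightest probe of a gene by its mean over all 8 arrays and triangles its dimmer probes; 6 probes were higher (red), 11 lower (blue) and 64 did not pass (grey), and the dashed line marks the median of all tested probes at 0.05.

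Among the transcription factors Hsf2 was the tested gene. It encodes a heat shock factor known for roles in development and in modulating the stress response. Hsf1, the main factor of the heat shock response, was not analysed here. Hsf2 read 6.35, 6.65, 6.27 and 5.92 on the 4 control arrays and 6.83, 6.44, 7.55 and 7.09 on the 4 anti-miR-214 arrays, in log2 intensity, a dim probe. The groups overlapped, since anti-miR-214 replicate 2 lay below control replicate 2. Hsf2 was higher by 0.68 on the log2 scale (SE 0.23, limma adjusted p = 0.0483), and this call held in 3 of 20 alternatives, the fewest of the 17 member calls. With slide as a blocking term its adjusted p became 0.0512, and it was 0.0512 and 0.236 under the common medians of the tested probes and of all probes, within a range of 0.0162 to 0.325. Leaving out any 1 array but control replicate 2 or anti-miR-214 replicate 2 ended the call, with log2 changes of 0.49 to 0.86 over the 8 fits.

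Hsph1, a member of the Hsp110 family that exchanges nucleotide on Hsp70 and helps it dissolve aggregates, had the largest rise of any member. Its control arrays read 9.95, 9.87, 10.06 and 9.32 and its anti-miR-214 arrays 10.17, 10.37, 10.94 and 11.07. All 4 anti-miR-214 kidneys lay above all 4 controls, with replicates 3 and 4 the highest and control replicate 4 the lowest. The mean rose from 9.80 ± 0.33 to 10.64 ± 0.44 (SD, n = 4), which is 1.78-fold (log2 change 0.83, SE 0.22, limma adjusted p = 0.0216). The difference was 0.53 among the 6 arrays of slide 1 (adjusted p = 0.102) and 1.74 between the 2 arrays of slide 2, so the arrays of replicate 4 carried much of it. The adjusted p was 0.0555 without control replicate 4, 0.0635 without anti-miR-214 replicate 3 and 0.0541 without replicate 4, with log2 changes of 0.67, 0.73 and 0.69. The related Hspa4 and Hspa4l differed by 0.28 and 0.19 and did not pass.

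Of the Hsp70 proteins, 6 genes had 10 tested probes, of which 2 were lower and 8 did not pass. The stress-inducible forms Hspa1a and Hspa1b are near-identical copies whose probes may not tell them apart. Hspa1a read 7.70, 7.95, 7.54 and 8.19 in controls and 7.33, 7.99, 8.28 and 7.73 after anti-miR-214. The groups of Hspa1a overlapped throughout, and the difference was -0.01 (SE 0.21, limma adjusted p = 0.969). Hspa1b differed by 0.05 (SE 0.20, adjusted p = 0.886), and the sign of both small differences changed between alternatives.

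Hspa8 encodes Hsc70, the Hsp70 that cells make at all times, and it had 3 probes annotated to the same RefSeq transcript that did not move alike. Probe 1 read 13.33, 13.40, 13.35 and 13.60 in controls and 13.31, 13.28, 13.62 and 13.69 after anti-miR-214. Probe 2 averaged 12.53 ± 0.15 in controls and 12.81 ± 0.23 after anti-miR-214 (SD, n = 4). In both the groups overlapped, and the differences of 0.06 (SE 0.13, limma adjusted p = 0.779) and 0.28 (SE 0.14, adjusted p = 0.165) did not pass. Probe 3 read 11.97, 12.24, 12.47 and 12.06 in controls and 11.05, 10.04, 9.33 and 8.60 after anti-miR-214. On probe 3 all anti-miR-214 kidneys were lower than all controls, with replicate 4 the farthest and replicate 1 the nearest, and the anti-miR-214 arrays spread much more widely than the controls. The mean fell from 12.18 ± 0.22 to 9.76 ± 1.04 (SD, n = 4), which is 5.38-fold lower (log2 change -2.43, SE 0.41, limma adjusted p = 0.00299). It passed in all 20 alternatives, at log2 changes of -2.86 to -1.64. A single direction for Hspa8 can therefore not be given: its brightest probe did not pass, and its dimmest fell by more than any other member probe but probe 2 of Hspd1.

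Hspa9 encodes mortalin, the Hsp70 of the mitochondrial matrix. Its probe 1 averaged 13.09 ± 0.07 in controls and 12.97 ± 0.04 after anti-miR-214 (SD, n = 4). All of the anti-miR-214 values were below all of the controls, but the difference was -0.11 (SE 0.10) and did not pass (limma adjusted p = 0.428). Probe 2 read 11.34, 11.67, 11.50 and 11.82 in controls and 11.23, 10.93, 11.03 and 10.78 after anti-miR-214, a fall of 1.51-fold (log2 change -0.59, SE 0.14, adjusted p = 0.0141). The groups of probe 2 did not overlap either, so both probes lay on the same side by different amounts. Probe 1 changed sign, to 0.23, under the common median of the tested probes, where probe 2 stayed lower.

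Hsp90aa1, the inducible cytosolic Hsp90, did not pass on either probe. Its brighter probe read 10.10, 10.34, 10.29 and 10.14 in controls and 10.19, 10.16, 10.36 and 10.61 after anti-miR-214, with overlapping groups (difference 0.11, SE 0.13, limma adjusted p = 0.546, and -0.01 under the common median of all probes). The constitutive Hsp90ab1 was not analysed here.

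**Figure D2:**
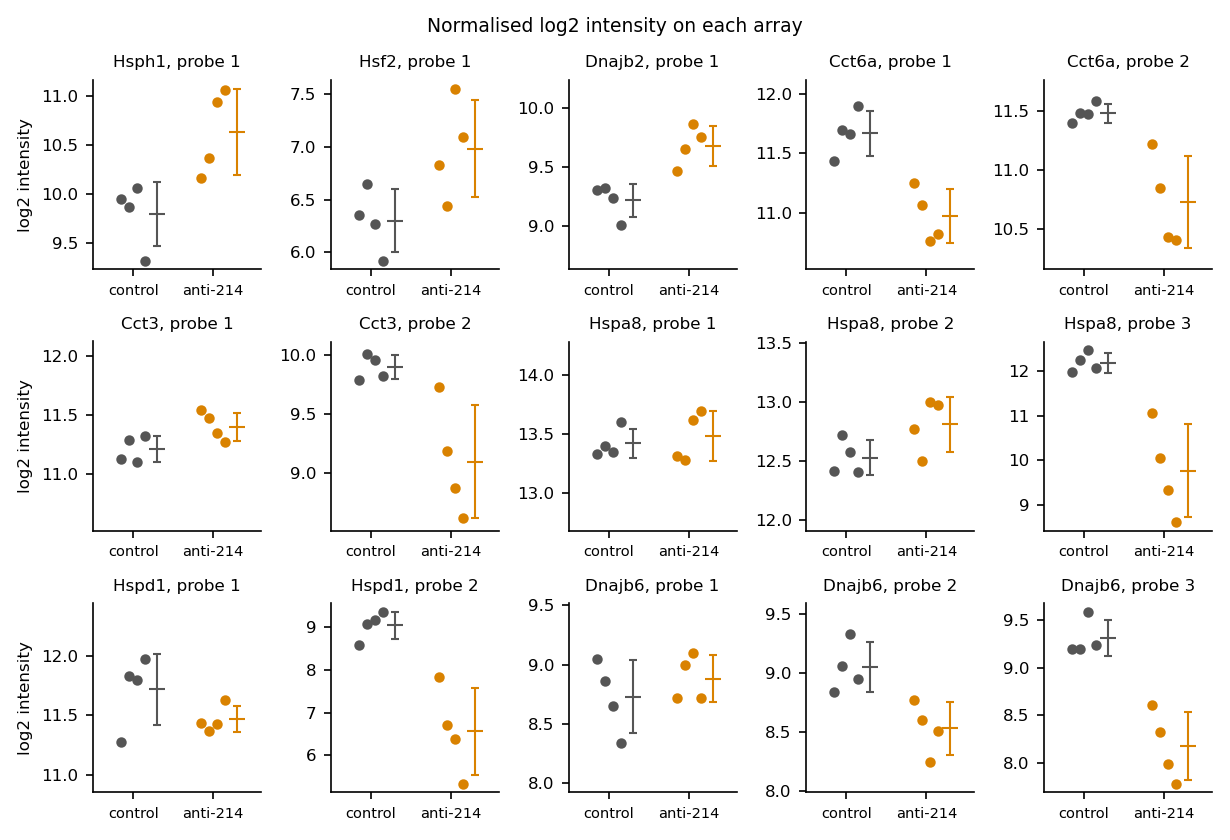
Normalised log2 intensity (vertical axis, its own scale in each panel) of 15 chaperone probes on each of the 4 control antimiR (grey) and 4 anti-miR-214 arrays (orange), in replicate order, with the mean and SD beside them. Probe 3 of Hspa8 and probe 2 of Hspd1 fell in every anti-miR-214 kidney, whereas probes 1 and 2 of Hspa8 and probe 1 of Hspd1 overlapped between the groups.

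None of the 7 tested BAG-domain and related genes passed in limma (0 of 7, with 2 at an unadjusted p under 0.05). Bag1, an exchange factor of Hsp70, read 13.12, 12.94, 13.09 and 12.91 in controls and 13.22, 13.17, 13.47 and 13.32 after anti-miR-214. Bag3, which pairs Hsp70 with the small heat shock protein Hspb8 in selective autophagy, read 11.22, 11.35, 11.15 and 11.15 in controls and 10.85, 11.10, 11.04 and 10.83 after anti-miR-214. In neither gene did the groups overlap, with Bag1 on the higher side by 0.28 (SE 0.12, limma adjusted p = 0.0956) and Bag3 on the lower side by 0.26 (a difference of -0.26, SE 0.12, adjusted p = 0.117). Bag1 reached 0.61 (adjusted p = 0.00732) with a common median of the tested probes and Bag3 -0.36 (0.0465) with a common median of all probes. Over the 7 genes the log2 differences ran from -0.27 to 0.28, and the groups of Bag5 and Bag6 did not overlap either.

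The small heat shock proteins did not pass on any of 4 probes (0 of 4 in limma, 0 at an unadjusted p under 0.05). Hspb1 encodes the actin-binding Hsp25, an injury marker of tubules, and was measured at 10.94, 10.99, 11.10 and 10.92 in controls and 11.38, 11.06, 10.55 and 10.22 after anti-miR-214. The controls lay close together, while anti-miR-214 replicate 1 lay above them, replicate 2 within their range and replicates 3 and 4 below, and the difference was -0.18 (SE 0.22, limma adjusted p = 0.557). Hspb8 differed by 0.17 (SE 0.16, adjusted p = 0.433) and Hspb6 by 0.00 (SE 0.13).

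The mitochondrial chaperonin consists of Hspd1 (Hsp60), which forms the folding barrel, and Hspe1 (Hsp10), its lid. Probe 1 of Hspd1 read 11.28, 11.83, 11.80 and 11.98 in controls and 11.44, 11.37, 11.43 and 11.63 after anti-miR-214. The groups overlapped, since control replicate 1 was the lowest of the 8, and the difference was -0.26 (SE 0.16, limma adjusted p = 0.238, and 0.0496 with that control left out). Probe 2 of Hspd1 read 8.58, 9.07, 9.16 and 9.33 in controls and 7.83, 6.70, 6.39 and 5.34 after anti-miR-214. It was detected on 3 of 4 anti-miR-214 arrays, and all 4 of them were below all controls. The mean fell from 9.03 ± 0.32 to 6.56 ± 1.02 (SD, n = 4), which is 5.54-fold lower (log2 change -2.47, SE 0.41, adjusted p = 0.00281). It passed in all 19 alternatives that kept the probe. Replicate 4 of anti-miR-214 was not detected, and the size of the fall differed with the treatment of background. Over those alternatives the log2 change ran from -2.89 to -1.52, the smallest without background correction. Hspe1 read 9.53, 9.94, 10.05 and 10.80 in controls and 9.92, 9.87, 9.91 and 10.32 after anti-miR-214, with overlapping groups and a difference of -0.08 (SE 0.23, adjusted p = 0.828). Of the pair that shares a promoter, neither brightest probe passed and the second probe of Hspd1 was lower.

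The cytosolic chaperonin CCT/TRiC is a double ring of related subunits. Tested probes existed for 6 genes matched by the Cct symbols, and 3 of 8 probes were lower and 5 did not pass. Cct6a, the zeta subunit, was the member gene whose probes agreed on a fall. Its probe 1 read 11.44, 11.70, 11.66 and 11.90 in controls and 11.25, 11.06, 10.76 and 10.82 after anti-miR-214, and probe 2 read 11.40, 11.48, 11.47 and 11.58 against 11.22, 10.85, 10.43 and 10.41. The groups did not overlap on either probe. Probe 1 fell 1.62-fold (log2 change -0.70, SE 0.15, limma adjusted p = 0.00782) and probe 2 fell 1.69-fold (log2 change -0.75, SE 0.18, adjusted p = 0.0121). Leaving out no single array ended either call, and without both anti-miR-214 replicates 3 and 4 the changes were -0.52 (adjusted p = 0.0803) and -0.45 (0.099).

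Cct3, the gamma subunit, had a brighter probe at 11.13, 11.29, 11.10 and 11.32 in controls and 11.54, 11.47, 11.35 and 11.27 after anti-miR-214, which differed by 0.19 (SE 0.12, limma adjusted p = 0.232) with overlapping groups. Its dimmer probe read 9.79, 10.01, 9.96 and 9.82 in controls and 9.73, 9.19, 8.88 and 8.62 after anti-miR-214. The groups of the dimmer probe did not overlap, although anti-miR-214 replicate 1 lay close to the controls, and it fell 1.73-fold (log2 change -0.79, SE 0.21, adjusted p = 0.0185). That call was lost without control replicate 2 (-0.76, adjusted p = 0.0526) and without anti-miR-214 replicate 3 (-0.72, 0.0544). The other subunits Cct4, Cct5, Cct6b and Cct8 differed by 0.04 to 0.44 and did not pass, Cct5 being nearest (0.44, SE 0.16, adjusted p = 0.0723).

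Tcp1, the alpha subunit of the same ring, carries an older symbol outside the rule and is in the list of partners. Probe 1 of Tcp1 read 10.91, 11.17, 11.08 and 11.05 in controls and 10.92, 10.49, 10.38 and 10.43 after anti-miR-214. Replicate 1 of anti-miR-214 lay within the control range and the other three below it, and the fall was 1.41-fold (log2 change -0.49, limma adjusted p = 0.0264). That call was lost without any 1 of control replicates 2, 3 and 4 or anti-miR-214 replicates 2, 3 and 4, at log2 changes of -0.49 to -0.44. Probe 2, detected on 1 of 4 anti-miR-214 arrays, read 6.69 ± 0.36 in controls and 5.35 ± 0.56 after anti-miR-214 (SD, n = 4, log2 change -1.34, adjusted p = 0.00624). This probe was tested only through the control group, where it is high. Its fall is measured against background in most anti-miR-214 kidneys and ran from -0.58 without background correction to -1.94 on the authors' processed values. Pdcl, a phosducin-like cofactor of CCT for G protein beta subunits, had the smallest p of the partner list. It read 8.18, 8.26, 8.11 and 8.09 in controls and 7.29, 7.13, 6.47 and 6.92 after anti-miR-214, far apart, a 2.3-fold fall (log2 change -1.20, SE 0.17, adjusted p = 0.00123) that held in all 20 alternatives. Of the prefoldin subunits, which hand clients to CCT, the second probe of Pfdn4 was lower (log2 change -0.40, adjusted p = 0.0474) and its first did not pass (-0.28, adjusted p = 0.0733). Txndc9, a thioredoxin-like regulator of CCT, was higher (log2 change 0.49, adjusted p = 0.0359) on a dim probe detected on 1 of 4 control and 4 of 4 anti-miR-214 arrays. It was tested only through the group where it is high, and the call held in 7 of 19 alternatives. On the brightest probes, lower calls in this machinery lay in Cct6a, Tcp1 and Pdcl, while the other tested Cct subunits were at 0.04 to 0.44 and did not pass.

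**Figure D3:**
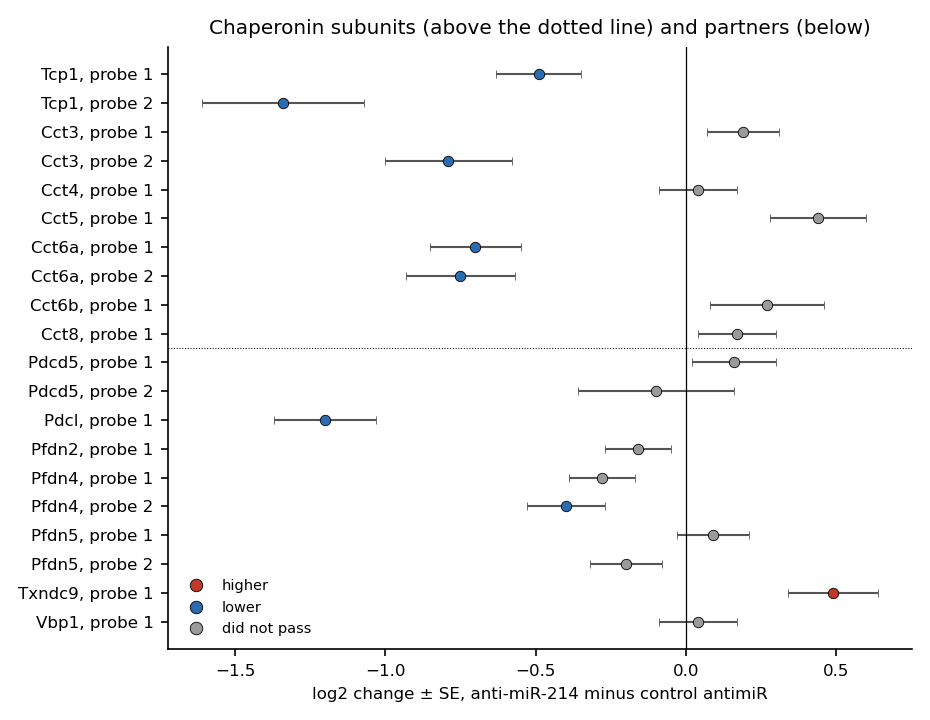
Log2 change (anti-miR-214 minus control antimiR, horizontal axis) with its standard error for each tested probe of the chaperonin subunits (Tcp1 and the Cct genes, above the dotted line) and of their partners (below). Cct6a was lower on both probes and Tcp1 on probe 1. Tcp1 probe 2, also lower, was detected on 1 of 4 anti-miR-214 arrays and was tested only through the controls. Cct3 passed on its dimmer probe at -0.79 and not on its brighter one at 0.19. Below the line Pdcl lay farthest from 0 at -1.20.

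J-domain proteins, which choose the clients of Hsp70 and start its ATP cycle, made up 43 of the 81 tested probes in 29 genes. Type A probes did not pass (0 of 3 in limma, 0 at an unadjusted p under 0.05), with Dnaja3, a mitochondrial form, at 0.25 (SE 0.12, adjusted p = 0.151). Of 8 type B probes 1 was higher and 2 were lower. Of 32 type C probes 3 were higher and 3 were lower. Dnajb1, the classic heat-inducible Hsp40, read 10.80, 10.88, 10.67 and 10.60 in controls and 10.56, 10.99, 11.12 and 10.84 after anti-miR-214, with overlapping groups and a difference of 0.14 (SE 0.14, limma adjusted p = 0.484).

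Dnajb2, a J protein that also binds ubiquitin, read 9.31, 9.32, 9.24 and 9.01 in controls and 9.47, 9.65, 9.86 and 9.75 after anti-miR-214. The groups did not overlap, and the mean rose 1.38-fold (log2 change 0.46, SE 0.13, limma adjusted p = 0.0241). Leaving out control replicates 3 or 4 or anti-miR-214 replicates 3 or 4 gave adjusted p of 0.0505, 0.0547, 0.0702 and 0.0562. Dnajc4 read 7.90, 7.60, 8.06 and 7.50 in controls and 8.33, 8.11, 8.43 and 8.36 after anti-miR-214, again without overlap, a 1.46-fold rise (log2 change 0.54, SE 0.15, adjusted p = 0.0222). The Dnajc4 call was lost without control replicate 2 (adjusted p = 0.0675), control replicate 4 (0.0531) or anti-miR-214 replicate 3 (0.062), and under the common median of all probes both genes remained above 0 without passing (0.28 and 0.27).

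Dnajc17, a nuclear J protein with an RNA recognition motif, read 6.17, 5.70, 6.56 and 6.29 in controls and 6.98, 6.54, 6.62 and 6.83 after anti-miR-214. The groups overlapped by 1 array on each side, and the rise was 0.56 (SE 0.18, limma adjusted p = 0.0424), which held in 8 of 20 alternatives. Dnajc19, part of the motor that imports proteins into mitochondria, was higher on its dimmest probe (log2 change 0.55, adjusted p = 0.043, held in 7 of 20 alternatives) but not on its brightest (0.12, adjusted p = 0.575), and its probes 2 and 3 were at -0.29 and -0.25. The dimmest probe of Dnajc19 is annotated to another RefSeq transcript than the brightest.

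Dnajb6, a J protein known for keeping glutamine-rich proteins from aggregating, had 3 probes of nearly equal mean over all arrays that did not move alike. In controls probe 3 was the brightest of them. Probe 1 averaged 8.73 ± 0.31 in controls and 8.88 ± 0.20 after anti-miR-214 (SD, n = 4), with overlapping groups and a difference of 0.16 (SE 0.17, limma adjusted p = 0.511). Probe 2 read 8.84, 9.06, 9.33 and 8.95 in controls and 8.77, 8.60, 8.25 and 8.51 after anti-miR-214. Probe 3 read 9.20, 9.20, 9.59 and 9.24 in controls and 8.61, 8.32, 7.99 and 7.78 after anti-miR-214. On probes 2 and 3 every anti-miR-214 kidney lay below every control, and control replicate 3 was the highest array on both. Probe 2 fell 1.43-fold (log2 change -0.51, SE 0.15, adjusted p = 0.0283, held in 13 of 20 alternatives) and probe 3 fell 2.19-fold (log2 change -1.13, SE 0.18, adjusted p = 0.00226, held in all 20). Unlike those of Hspa8, Hspd1 and Cct3, probes 2 and 3 of Dnajb6 are annotated to another RefSeq transcript than probe 1.

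Lower calls of other J proteins also stood beside a probe of the same gene that did not pass. Dnajc2, which works at the ribosome on emerging chains, read 6.78, 7.08, 7.27 and 7.24 in controls and 6.58, 6.42, 6.24 and 6.42 after anti-miR-214 on probe 2, without overlap. That probe fell 1.6-fold (log2 change -0.68, SE 0.14, limma adjusted p = 0.00702), beside 0.02 on probe 1. Dnajc12, which binds the hydroxylases of aromatic amino acids, was lower on probe 2 (log2 change -0.73, SE 0.22, adjusted p = 0.0323) with overlapping groups, and its probe 1 differed by -0.24. Dnajc16 was lower on probe 2 (log2 change -0.38, SE 0.11, adjusted p = 0.031) without overlap, and its probes 1 and 3 differed by 0.09 and 0.12. Probe 2 of Dnajc16 is annotated to another RefSeq transcript than probe 1, and probe 3 to the same one. In controls probe 2 of Dnajc16, at 9.17, was brighter than probe 1, at 8.99. The Dnajc12 and Dnajc16 calls each held in 10 of 20 alternatives, and that of Dnajc2 in 19.

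Whether probes of 1 gene moved differently was tested directly, by fitting, on every array, each dimmer probe minus its gene's brightest probe, ranked by the mean over all 8 arrays. The 18 member genes with several tested probes gave 23 such pairs, of which 18 were annotated to the same RefSeq transcript. The dimmer probe was lower relative to its partner in 8 pairs (Hspa8, Hspd1, Dnajb6, Cct3, Dnajc2, Dnajc28, Hspa9 and Dnajc16) and 15 did not pass. In none was it higher (0 of 23 in limma, with 1 at an unadjusted p under 0.05). Over the 5307 pairs of all named genes 28.1% passed, 19.4% with the dimmer probe lower and 8.76% with it higher, and the median difference was -0.37 for member pairs and -0.06 for all pairs. Which probe counts as dimmer depends in part on the change. Ranked on the control arrays alone, the dimmer probe was lower in 6 member pairs (Hspa8, Hspd1, Cct3, Dnajc2, Dnajc28 and Hspa9) and higher in 3 (2 of Dnajb6 and 1 of Dnajc16), against 17.4% and 10.7% of all pairs, and the median differences were -0.08 and -0.03. Among the 20 member pairs whose probes were both detected on all 8 arrays, 6 passed with the dimmer probe lower, without Hspd1 and Dnajc28, and 0 with it higher (limma, 1 at an unadjusted p under 0.05), against 15.8% and 9.4% of all such pairs. The ranking cannot change whether 2 given probes differ, only which pairs are formed and which probe is called dimmer. The side on which the dimmer probe lay changed for Dnajb6 and Dnajc16.

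The largest such differences were -2.48 for Hspa8 probe 3 (SE 0.48, limma adjusted p = 0.00397), -2.21 for Hspd1 (SE 0.43, adjusted p = 0.00386) and -1.29 for Dnajb6 probe 3 (SE 0.24, adjusted p = 0.00361). Cct3 followed at -0.99 (SE 0.18, adjusted p = 0.00275). The dimmer probe of Dnajc28 was detected on all 4 control arrays and on 0 of 4 anti-miR-214 arrays, so it was tested only through the group where it is high, and its difference of -0.50 rests on signals at background in the other. In Cct6a the pair differed by -0.05 (SE 0.13, adjusted p = 0.803). The difference also did not pass for Dnajc12 (-0.50, SE 0.24, adjusted p = 0.147) and for probe 2 of Dnajb6 (-0.67, SE 0.23, adjusted p = 0.0544), both of which had a lower call. Without anti-miR-214 replicates 3 and 4 the count of pairs past the threshold was 4, and the share of all pairs in that fit is not given.

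**Figure D4:**
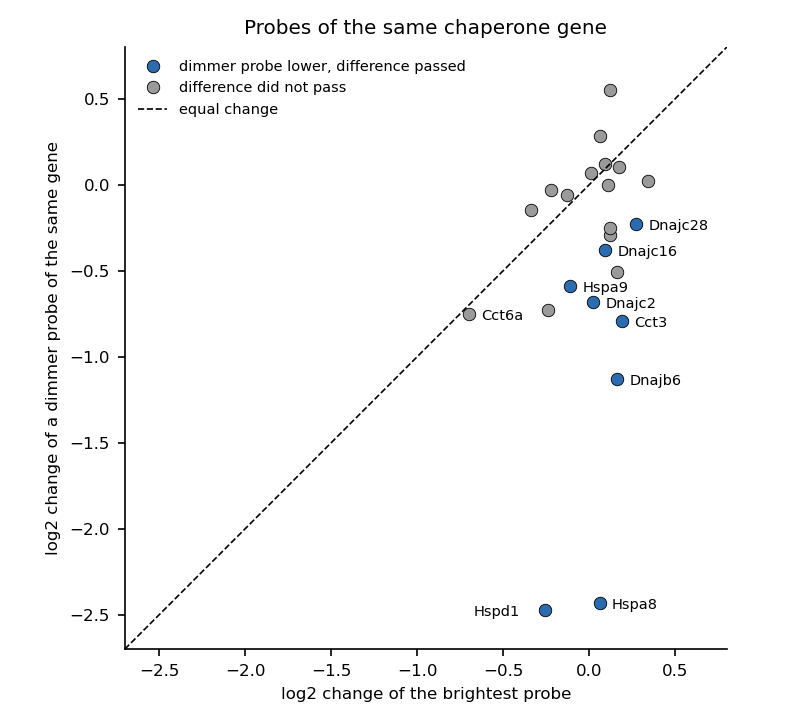
Log2 change of the brightest probe by mean over all 8 arrays (horizontal axis) and of a dimmer probe (vertical axis) of the same chaperone gene, for 23 pairs in 18 genes, with the dashed line marking equal change. The 8 pairs in blue passed the test of the difference and all lie below the line, Hspa8 and Hspd1 farthest, whereas Cct6a lies on it.

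The 4 genes with the 3-unit heat shock repeat shown above did not move as 1 group. On the brightest probe Hsph1 rose by 0.83 while Dnajb6 (0.16), Hspe1 (-0.08) and Hspd1 (-0.26) did not pass. On dimmer probes Hspd1 (probe 2, -2.47) and Dnajb6 (probes 2 and 3, -0.51 and -1.13) were lower. In controls alone, probe 3 was the brightest of the Dnajb6 probes. Of the stress-inducible core genes tested, Hsph1 passed upward, and Hspa1a, Hspa1b, Hsp90aa1, Hspb1, Dnajb1 and Bag3 did not pass. A p that misses the threshold does not show that these genes were equal between the groups.

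Partners of the chaperones outside the rule were taken as a list of 35 genes, 29 of them tested. By the brightest probe 6 were higher, 2 were lower and 21 did not pass, a share of calls near that of all named genes (22.3%, with 12.3% higher and 9.93% lower). Their median change was 0.10 on the log2 scale, beside 0.08 for all named genes. The 6 higher partners include Txndc9, which was tested only through the group where it is high. Stub1 (CHIP), the ubiquitin ligase that marks chaperone clients for destruction, read 8.88, 8.82, 8.89 and 8.65 in controls and 9.29, 9.16, 9.35 and 9.36 after anti-miR-214. These groups did not overlap, and Stub1 rose 1.4-fold (log2 change 0.48, SE 0.11, limma adjusted p = 0.0116). Fkbp4, an immunophilin of steroid receptor complexes, rose by 0.41 (adjusted p = 0.0327, held in 12 of 20 alternatives), Sugt1, an Hsp90 partner in kinetochore assembly, by 0.49 (0.0141, held in 18), and Ahsa2, a relative of the Hsp90 activator Aha1, by 0.44 (0.0279, held in 13). Unc45a, a myosin chaperone that works with Hsp90, was higher on both probes, by 0.38 (adjusted p = 0.0432) and 0.64 (0.00349), and the first held in 9 of 20 alternatives and the second in all 20. With 1 array left out, the first lost its call in 7 of the 8 fits. Cdc37l1, a relative of the kinase chaperone Cdc37, was lower on probe 3 (-0.61, adjusted p = 0.00818) and not on its brightest (0.10, adjusted p = 0.616). The count of higher partners was 12 with a common median of the tested probes and 0 with a common median of all probes (limma, 2 at an unadjusted p under 0.05), and it was 2 to 7 with 1 array left out. Of all 18601 tested probes 2195 were higher as reported, and 3455 and 551 under these medians. With 1 array left out 1222 to 2196 of them were higher.

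The anti-miR-214 kidneys were not alike among themselves. In Hspa8 probe 3, Hspd1 probe 2, Dnajb6 probe 3 and Cct3 probe 2 replicate 1 lay nearest to the controls and replicate 4 farthest. The same order held in Cct6a probe 2 and Hspa9 probe 2. The other lower calls differed. Replicate 3 lay farthest in Cct6a probe 1, Dnajb6 probe 2, Dnajc2 probe 2 and Dnajc12 probe 2, and replicate 1 in Dnajc16 probe 2. Without replicates 3 and 4 of anti-miR-214, 7.52% of all tested probes passed, and of the members 3 probes did: Hspa8 probe 3 (log2 change -1.64, limma adjusted p = 0.00888), Hspd1 probe 2 (-1.77, 0.0117) and Dnajb6 probe 3 (-0.85, 0.0199). No member was higher in that fit (0 in limma, with 5 at an unadjusted p under 0.05).

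**Figure D5:**
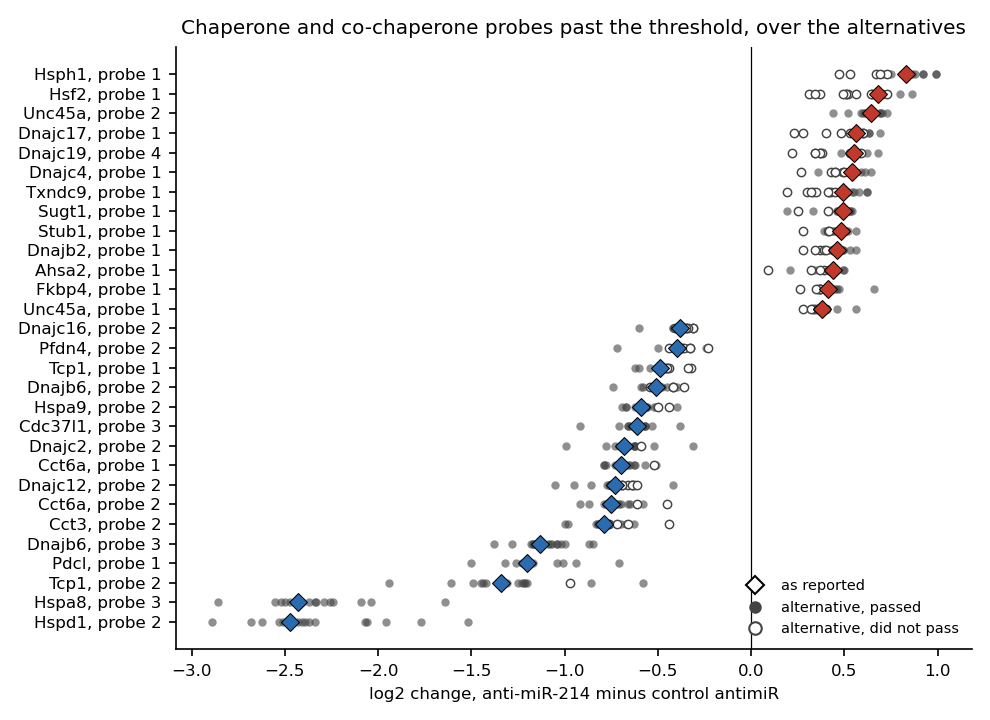
Log2 change (anti-miR-214 minus control antimiR, horizontal axis) of the 29 chaperone and co-chaperone probes past the threshold, as reported (diamonds) and under each of up to 20 alternatives (filled circles passed, open circles did not). No probe changed sign. Hspa8 probe 3, Hspd1 probe 2, Dnajb6 probe 3, Pdcl, Unc45a probe 2 and Cdc37l1 probe 3 passed in every alternative run for them, and Hsf2 passed in 3 of 20.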

How the data were processed

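Per the labels' protocols, total kidney RNA was extracted with a phenol reagent and columns including DNase, turned into biotinylated cRNA and run on Illumina mouse arrays. The deposited main table held a linear intensity for 45281 probes on 8 arrays, not normalized per the file headers. Beside each intensity the deposited table gave the detection p-value. The authors' processed intensity values, whose making is not stated in labels or headers, had the same upper quartile (147.7) on every array and served as an alternative. Columns of other series numbered 0.

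Background correction and normalization used neqc of limma 3.58.1 (R 4.3.3; background from detection p-values, offset 16, quantile normalization, log2). The offset shrinks changes of dim probes, and quantile normalization hides a shift shared by all genes. Probes with a detection p under 0.05 on at least 4 of 8 arrays were fitted with lmFit and eBayes, group as the only term, two-sided, with Benjamini-Hochberg adjustment over all 18601 tested probes. Signal over background takes the place of read depth, and the number of arrays limits precision. Groups were read from the sample titles, with replicates being animals per the series' design. Slide 1 held replicates 1 to 3 of both groups and slide 2 replicate 4 of each, per the file headers. Any 2 arrays correlated at 0.991 or less in raw intensity.

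Gene names came from the platform annotation, which names 34885 probes with 1 symbol and 18 with several, left unnamed; a RefSeq table changed 0 symbols. Motifs were searched in RefSeq promoter windows. The members, classes and lists were chosen with earlier results of these data known. Genes named in full were every member with a passing probe, a core of stress genes, the gene of smallest p in each class, and partners past the threshold. Other members are named where a result needed them, after their values were seen. On simulated data with 18601 probes the fit recovered 7% of probes changed by 0.5 and 74% of those changed by 1 (log2). The simulation changed a far smaller share of probes than the 25.6% called in the data. The adjustment was therefore stricter there, and these recovery shares cannot be carried over to the probes reported here. Alternatives covered scaling, background, detection filter, slide, replicate number, array weights, the deposited processed values, left-out arrays and, added after seeing the data, the ranking of probe brightness.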

Additional observations from a re-analysis of the deposited data

Results flagged for a closer look

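In 4 of 100 groups of named probes 1 array lay apart from the other three by Dixon's criterion, which chance alone gives in about 1 of 20 groups. In controls, Dnajb6 probe 3 was 9.59 on replicate 3 (others 9.20 to 9.24) and Hspb8 probe 1 was 10.26 on replicate 4 (others 10.82 to 10.92). After anti-miR-214, Dnajc2 probe 1 was 9.64 on replicate 4 (others 9.06 to 9.16) and Hspe1 probe 1 was 10.32 on replicate 4 (others 9.87 to 9.92).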

How the results depend on the processing

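Of the 29 probes past the threshold, none changed sign in any of 577 refits, 413 kept the call and 164 lost it. The counts of higher and lower member probes, 6 and 11, were 10 and 11 with a common median of the tested probes and 1 and 20 with a common median of all probes, where the member median became -0.17. The wording of the planned common median did not say over which probes, both were computed, and the version over all probes was entered as added after seeing the data, a choice made once both results were known. Other higher counts were 3 with no detection filter, 0 on slide 1 alone (7 at an unadjusted p under 0.05, limma) and 0 without anti-miR-214 replicates 3 and 4. Lower counts in those last fits were 5 and 3. Of all probes in the fit, 10.2% passed with no detection filter, 13.7% on slide 1 and 7.52% without those replicates. Under the medians of the tested and of all probes 30.9% and 27.2% of all tested probes passed, and with 1 array left out 15.9% to 25.9% did. With 1 array left out the higher count ran from 0 to 7, at 0 without control replicate 4 (limma, 8 at an unadjusted p under 0.05) or anti-miR-214 replicate 3 (limma, 7 at an unadjusted p under 0.05), the lower count from 7 to 12, and the median from 0.01 to 0.07. By the mean of all probes of a gene 5 genes were lower in place of 1, adding Hspa8, Hspd1, Hspa9 and Dnajb6. By that mean 22.7% of all named genes passed in either direction. With brightness ranked on the control arrays alone, chosen after seeing the data, 3 genes were lower, and ranked on the anti-miR-214 arrays alone 1 was. Of all named genes 10.5% and 9.56% were lower under these rankings. A refit over the brightest probes alone gave 4 higher genes, without Hsf2, and 21.7% of all named genes passed in it.

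Higher partner genes, 6 as reported, were 12 and 0 under the medians of the tested and of all probes, 2 on slide 1 alone, 0 without anti-miR-214 replicates 3 and 4 (limma, 3 at an unadjusted p under 0.05) and 2 to 7 with 1 array left out. Of all 18601 tested probes 2195 were higher as reported, and 3455 and 551 under the 2 medians. On slide 1 alone 1075 were higher, and 437 without those replicates. Lower partner genes were 1 in place of 2 with the median of the tested probes, on slide 1 and without those replicates, and 1 to 2 with 1 array left out. Pairs with the dimmer probe lower numbered 8, 12 under either median, 4 without those replicates, 6 with brightness ranked on control arrays and 6 to 10 with 1 array left out. The share over all pairs is given for the reported fit (19.4%) and the control ranking (17.4%). For the other refits it is not given, so whether all pairs shifted alike is not shown. The causes of these shifts were not tested, beyond the smaller number of arrays in the fits that leave some out.

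With the replicate number as a block 5 probes were higher and 8 lower, all 13 among the 17 reported. Of all tested probes 24.7% passed in that fit. Deviations of arrays with the same number correlated at 0.015, 0.0631, 0.0508 and 0.204, so the numbers were not taken as pairs. Only replicate 4 correlated best with its own number.

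Of the 21 named probes that did not pass, 13 changed sign under at least 1 alternative, in 34 refits in all, none passing. With the tested-probe median they were Hspa9 probe 1 (0.23) and Hspe1 (0.07). With the all-probe median they were Cdc37l1 (-0.12), Dnajb6 (-0.06), Dnajc16 (-0.12), Dnajc2 (-0.17), Hsp90aa1 (-0.01) and Hspa1b (-0.21), each on probe 1. On slide 1 they were Cdc37l1 (-0.04), Hsp90aa1 (-0.01), Hspa1a (0.14), Hspb8 (-0.03) and Hspe1 (0.06). With array weights they were Hspa1a (0.03) and Hspa1b (-0.02). With 1 array left out Hspa1a ranged from -0.16 to 0.15, Hspa1b from -0.14 to 0.19, Hspe1 from -0.26 to 0.16, Dnajc2 from -0.11 to 0.16, Cdc37l1 from -0.01 to 0.17, Dnajc12 from -0.46 to 0.01, Hspa8 from -0.02 to 0.12 and Hspb1 from -0.38 to 0.01. Without anti-miR-214 replicates 3 and 4 they were Dnajc2 (-0.12), Hsp90aa1 (-0.04), Hspa1b (-0.10), Hspa8 (-0.12) and Hspb1 (0.23). Hspd1 probe 2, Tcp1 probe 2 and Txndc9 had no value under the filter of detection on all 8 arrays, and the pairs were not refitted under the other detection filters.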
